A study of Mus musculus with 15 samples.

Results

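Mouse genes named Zfp700 to Zfp999 were examined in 2 brain regions, cerebellum (Ce) and striatum (St), of mice bred for high levels of wheel running (the Hi line) and of unselected mice (the control line, Co). Members were the rows of the deposited table whose symbol is Zfp followed by a number from 700 to 999, and 100 of the 26628 genes in the table met this rule. The rule used the symbol alone and no measured value. Of the 100 members, 95 had a CPM (normalized counts per 1000000 of a sample) of at least 1 in 3 or more of the samples and were tested.

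RNA-seq was available for 4 CeCo, 4 CeHi, 4 StCo and 3 StHi samples, 15 in all, the authors having removed 1 StHi sample. All mice were Hsd:ICR males placed with a running wheel at about 6 weeks of age and sampled after 7 days, so the control mice had also run. The authors report that mice of the selected line ran more and faster than control mice before sampling. The mice came from a single selected line and a single control line. Selection, the amount of running and any other difference between these lines therefore cannot be told apart. Each sample was a whole cerebellum or striatum, and a lower share of a cell type and less RNA per cell cannot be told apart in such tissue.

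Genes of this series encode proteins with arrays of C2H2 zinc fingers, short modules that each hold a zinc ion and contact DNA. Many also carry a KRAB domain, which binds the scaffold protein TRIM28 (KAP1). TRIM28 in turn brings the histone H3 lysine 9 methyltransferase SETDB1, HP1 proteins and the NuRD complex, and the target, often a transposable element, is packed into heterochromatin. Such genes arose by repeated local duplication and many lie side by side in clusters, which makes neighbouring members alike in sequence.

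All 100 members were placed on the mouse genome (GRCm38), 97 under the same symbol and 3 under another (Zfp826 as Zfp950, Zfp828 as Champ1 and Zfp862 as Zfp862-ps). Annotated as protein-coding were 97 members, and Zfp783, Zfp862 and Zfp939 were pseudogenes. In their translated transcripts 66 members held a KRAB A box pattern, against 353 of 21951 protein-coding genes of the genome, or 1.61%. The pattern was not found in 31 coding members, which does not show that they lack the domain. The median coding member had 11 fingers and the most had 23, and 5 coding members had none by the pattern used, among them Zfp703 and Zfp839. Members lay on 17 chromosomes, most often 7 (20 members), 17 (18 members) and 8 (15 members). With gaps under 1 Mb counted as unbroken, 59 members fell into 12 runs of 3 or more.

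The members whose levels differed between the lines in both regions, described further on, are Zfp760, Zfp945 and Zfp758, which lie in 1 run on chromosome 17. The 250 bases before their annotated starts are shown because these genes passed in both regions, a choice made from the measured values. They are from RefSeq (GRCm38.p6), at chr17:21707491-21707740 on the plus strand for Zfp760, chr17:22867135-22867384 on the minus strand for Zfp945 and chr17:22361213-22361462 on the plus strand for Zfp758. Capitals mark every match, on either strand, of 3 short patterns, CCAAT (the NF-Y box), GGGCGG (the GC box of Sp1) and GCCATNTT (the core of the YY1 site).
Zfp760: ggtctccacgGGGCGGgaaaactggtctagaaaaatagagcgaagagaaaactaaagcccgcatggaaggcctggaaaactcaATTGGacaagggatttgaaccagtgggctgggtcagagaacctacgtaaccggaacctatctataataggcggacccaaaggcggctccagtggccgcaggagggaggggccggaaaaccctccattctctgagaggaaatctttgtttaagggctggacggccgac
Zfp945: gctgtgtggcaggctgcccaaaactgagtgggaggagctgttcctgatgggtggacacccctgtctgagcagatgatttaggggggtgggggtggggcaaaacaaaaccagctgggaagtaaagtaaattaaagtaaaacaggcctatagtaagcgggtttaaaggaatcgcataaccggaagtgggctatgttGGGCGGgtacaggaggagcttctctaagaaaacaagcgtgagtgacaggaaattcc
Zfp758: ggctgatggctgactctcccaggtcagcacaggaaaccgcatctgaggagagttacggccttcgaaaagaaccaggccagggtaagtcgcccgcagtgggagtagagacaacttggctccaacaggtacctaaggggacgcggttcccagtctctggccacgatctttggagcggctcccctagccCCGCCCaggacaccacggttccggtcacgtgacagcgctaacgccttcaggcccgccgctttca
Each of the 3 stretches held 1 GC box, and the one before Zfp760 also held 1 CCAAT box on the opposite strand. None held the YY1 core, which says only that these letters were absent from these windows. Of the 100 members 86 had a RefSeq window of 300 bases around the start (250 before and 50 after). A CCAAT box occurred in 61.6% of these 86 windows and in 37.9% of the windows of all 27025 genes in the same collection, counting 1 window per gene. The YY1 core occurred in 18.6% against 6.23%, and the GC box in 43.0% against 35.9%. The sets were not matched. The 27025 genes outnumber the 21951 protein-coding genes translated here, while 97 of the 100 members are coding. The window of a gene with several starts may also have been picked differently for members. Over all 32851 windows of the collection the shares were 37.4% (CCAAT), 6.05% (YY1 core) and 35.7% (GC box). The part of gene type in these contrasts was not tested. The patterns were counted separately, and matches of different patterns could share bases. A match is a description of the sequence and not an occupied site.

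Depth was even, with 32909387 to 47485536 fragments per sample recovered from the values. Defining markers followed the tissue labels. Summed over 5 granule cell genes the Ce samples had 4849 to 5970 CPM and the St samples 12.1 to 20.02, and over 8 medium spiny neuron genes the St samples had 3956 to 5590 CPM and the Ce samples 207 to 292. Some markers also moved with line. Medium spiny neuron markers in the Ce were 4.08% to 4.86% of the St median in CeCo and 5.22% to 5.77% in CeHi, granule cell markers were 5393 to 5970 CPM in CeCo and 4849 to 5290 in CeHi, and 4 oligodendrocyte markers were 4108 to 5881 CPM in StCo and 6270 to 7168 in StHi. Choroid plexus markers ranged from 27.3 to 2969 CPM in CeCo and from 19.96 to 2778 in CeHi, a spread within both groups. None of the markers used was at 0 in all samples of a group, and the part of these shifts in the results for the members was not tested.

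The values are normalized counts, fragment counts divided by a factor per sample, in which 1 fragment was worth 0.841 to 1.30. The median member had a mean of 611 normalized counts over the 15 samples. Levels are compared between genes only per kilobase of annotated exon. On that scale the median member stood at 151 normalized counts per kilobase, and the tested members with the KRAB pattern had a median of 152 against 168 for those without. The highest were Zfp706 with 2058 per kilobase, Zfp869 with 907, Zfp740 with 700, Zfp871 with 602 and Zfp771 with 539. The annotated exons of Zfp869 cover 1590 bases for a protein of 529 residues, which leaves no room for untranslated sequence. Its value per kilobase, and so its rank, may be too high. Zfp706 encodes a small protein with 1 finger and no KRAB pattern, and of these 5 genes the pattern was found in Zfp871 alone.

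Low members were few. Zfp735 was at 0 in every library, which at a floor of 3 fragments allows up to 2.52 to 3.89 normalized counts depending on the sample. The other untested members were Zfp819, Zfp872, Zfp936 and Zfp957, whose highest library held 11, 12, 4 and 13 fragments. Their low values were not compared between groups.

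The first question was how the members differed between the regions. As a family they leaned to the cerebellum. Log2 fold changes are differences of log2 of the scaled normalized count plus 1, fitted with limma, and FDR-adjusted P-values are Benjamini-Hochberg values over all genes tested. Between CeCo and StCo, 78 of the 95 members tested passed an FDR-adjusted P-value of 0.05, 61 of them higher in the cerebellum and 17 higher in the St, where 74.7% of all 15213 genes tested passed, 37.8% higher in the cerebellum and 36.9% higher in the St. Between CeHi and StHi, 69 members passed, 56 higher in the cerebellum and 13 higher in the St, against 70.5% of all genes, 35.4% and 35.1% in the same order. The share of members that differed was thus near that of all genes, and the split between the directions was uneven where that of all genes was even. The median log2 fold change of the members, Ce minus St, was 0.38 in the Co line and 0.34 in the Hi line, while that of all genes tested was 0.01 in both.

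In both lines and in the same direction, 67 members passed, 55 higher in the cerebellum and 12 higher in the St, where 65.9% of all genes did so, 32.9% in each direction. The lean was not seen in this number range alone. Of 231 tested genes named Zfp with any other number, 116 were higher in the Ce in both lines and 31 higher in the St. Without an overlap between the samples of the regions were 72 members in the Co line and 69 in the Hi line, against 69.9% and 68.3% of all genes.

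The summed level of the 100 members was 2487 ± 66.9 CPM in CeCo (SD, n = 4), 2440 ± 59.6 in CeHi (SD, n = 4), 1915 ± 23.4 in StCo (SD, n = 4) and 1901 ± 39.3 in StHi (SD, n = 3). Every Ce sample, from 2400 CPM upward, lay above every St sample, which reached 1946 CPM at most. The lines overlapped within each region.

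**Figure D1:**
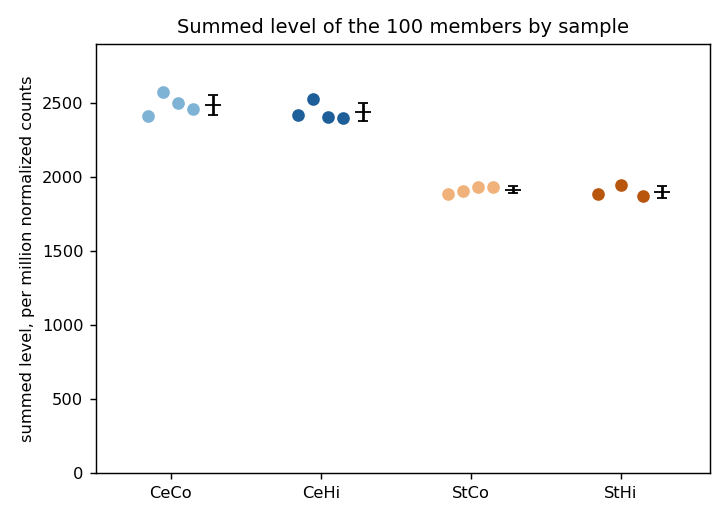
Summed level of the 100 members in each sample (y axis, per 1000000 normalized counts, from 0) for the 4 groups on the x axis. Dots are samples and bars the mean with the SD. The 8 Ce samples sit between 2400 and 2572 and the 7 St samples between 1872 and 1946.

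Split by the KRAB pattern, 42 of the 62 tested members with it were higher in the Ce in both lines and 4 higher in the St. Of the 30 tested coding members without the pattern 12 were higher in the cerebellum and 8 higher in the St. The median log2 fold change in the Co line was 0.44 with the pattern and 0.19 without, and in the Hi line 0.41 and 0.12. In CPM, the 66 members with the pattern summed to 1338 ± 57.6 in CeCo and 937 ± 11.8 in StCo (SD, n = 4 each), and the 31 without to 1097 ± 18.6 and 948 ± 25.7 (SD, n = 4 each). The difference between the 2 classes of members was not tested, since genes are not replicates.

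**Figure D2:**
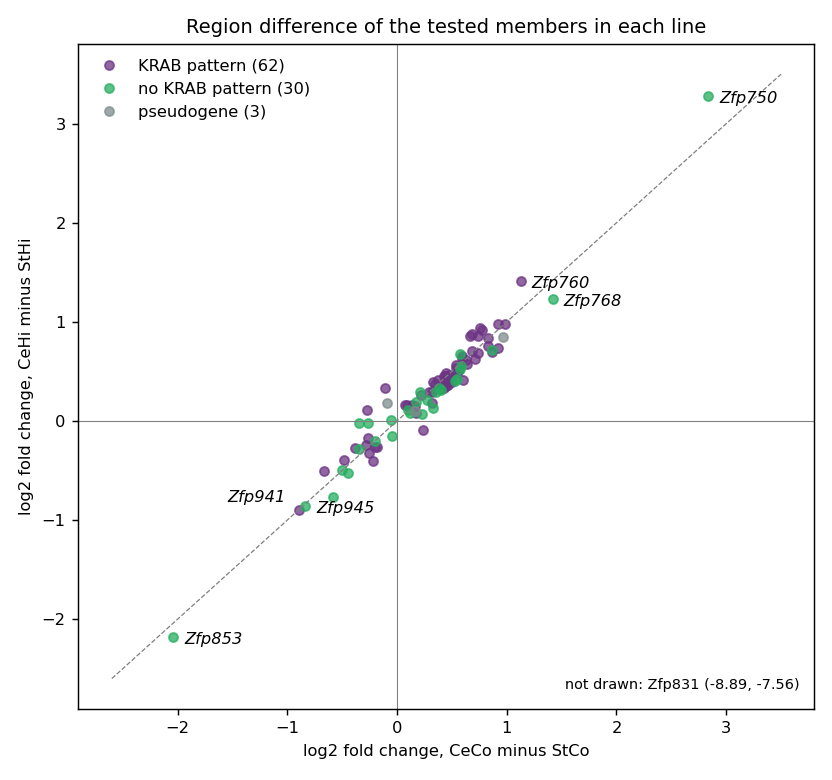
Log2 fold change between the regions, Ce minus St, of the tested members in the Co line (x axis) and in the Hi line (y axis), coloured by the KRAB pattern, with the line of equal change dashed. Most points lie above 0 on both axes near the dashed line, Zfp750 and Zfp853 lie far out, and Zfp831 (-8.89 and -7.56) is outside the axes.

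Zfp831 had the widest difference of all members. Its 7 St libraries held 1081 to 1485 normalized counts. The CeCo libraries held 0.932, 0.892, 1.71 and 4.45, and the CeHi libraries 5.05, 2.11, 2.78 and 17.97. It was thus near the floor in the cerebellum in all libraries but CeHi replicate 3. The log2 fold change was -8.89 ± 0.46 (SE) in the Co line with an FDR-adjusted P-value of 8.08e-11 and -7.56 ± 0.49 in the Hi line with 1.96e-09, sizes that depend on the 1 count added before the logarithm (-6.77 and -6.17 with 10 added).

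The second member by size in this direction, Zfp853, was low in both regions. Its St libraries held 60.5, 97.9, 64.1 and 74.0 normalized counts in StCo and 83.0, 61.2 and 64.1 in StHi. Its Ce libraries held 16.8, 16.0, 37.5 and 8.02 in CeCo and 10.9, 12.7, 14.8 and 21.1 in CeHi. All St libraries were above all Ce libraries, with a log2 fold change of -2.04 ± 0.34 (SE) in the Co line and -2.18 ± 0.37 in the Hi line, FDR-adjusted P-values 3.69e-05 and 4.77e-05.

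Also higher in the St were Zfp941, Zfp945 and Zfp710. Zfp941 and Zfp945 are members whose line differences are given further on, and their region log2 fold changes were -0.89 in both lines for Zfp941, and -0.84 (Co) and -0.86 (Hi) for Zfp945. Zfp710, with 11 fingers and no KRAB pattern, averaged 845 ± 77.8 normalized counts in CeCo and 1263 ± 94.0 in StCo (SD, n = 4 each), and 780 ± 44.1 in CeHi (n = 4) and 1327 ± 96.4 in StHi (n = 3). The other 7 of the 12 members higher in the St in both lines were Zfp771, Zfp810, Zfp811, Zfp821, Zfp826, Zfp827 and Zfp934.

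Toward the cerebellum the widest difference was that of Zfp750, whose human counterpart is known for a role in the differentiation of the epidermis. It was a low gene here. CeCo libraries held 41.9, 53.5, 52.1 and 40.1 normalized counts and CeHi libraries 54.7, 50.6, 38.9 and 45.4. StCo libraries held 12.3, 3.96, 5.25 and 3.66, and StHi libraries 6.49, 0.971 and 7.12. The groups of the regions did not overlap, and the log2 fold change was 2.84 ± 0.41 (SE) in the Co line and 3.28 ± 0.44 in the Hi line, FDR-adjusted P-values 7.69e-06 and 4.16e-06. These sizes depend on the count added before the logarithm, and with 10 in place of 1 they were 1.82 and 1.97. Without StHi replicate 1 the value in the Hi line was 2.62. The gene overlaps Tbcd on the opposite strand, and whether reads were assigned by strand is not given in the sources used here.

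Zfp768, a gene with 10 fingers and no KRAB pattern, had 945, 855, 804 and 940 normalized counts in CeCo and 841, 871, 822 and 871 in CeHi. In the striatum it had 323, 342, 348 and 303 in StCo and 376, 350 and 357 in StHi. Every Ce library held more than 2 times the highest St library of 376. The log2 fold change was 1.42 ± 0.069 (SE) in the Co line and 1.23 ± 0.074 in the Hi line, with FDR-adjusted P-values of 5.72e-12 and 1.48e-10, the smallest among the members.

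Its neighbour in the same run on chromosome 7, Zfp747, was higher in the Ce by 0.92 ± 0.083 on the log2 scale (SE) in the Co line and by 0.98 ± 0.089 in the Hi line. This run also holds Zfp764 and Zfp771, and in the Co line 3 of its 4 members were higher in the cerebellum and 1, Zfp771, higher in the St. Of the 50-base windows of their transcripts, 34.4% in Zfp747 and 27.1% in Zfp764 occur in another gene. Zfp781 on chromosome 10 was higher in the Ce by 0.98 in both lines, but 96.3% of the 50-base windows of its transcripts also occur in another gene, for the most part Gm3055, so its count is uncertain. Zfp760 completed the 5 widest, at 1.13 ± 0.089 in the Co line and 1.41 ± 0.096 in the Hi line.

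In the Co line 10 of the 12 runs of neighbouring members had more members higher in the Ce than in the St. In the run from Zfp786 to Zfp775 on chromosome 6, 6 of 7 tested members were higher in the cerebellum and none higher in the St. In the run from Zfp930 to Zfp866 of chromosome 8 this was so for 5 of 6 members, and in the run from Zfp712 to Zfp738 of chromosome 13 for 5 of 6, again with none higher in the St. The exceptions were the run of Zfp808, Zfp935 and Zfp934 on chromosome 13, where 0 of 3 were higher in the cerebellum and 1 was higher in the St, and that of Zfp872, Zfp809 and Zfp810 on chromosome 9, with 1 tested member on each side. In the chromosome 17 run that holds Zfp760, 5 of 10 members were higher in the cerebellum and 2 in the St.

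Of the listed members with a described function, Zfp809, Zfp746 and Zfp703 were higher in the Ce in both lines. Zfp809, a KRAB zinc finger protein known to silence retroviral DNA by recognising the primer binding site, was higher in the Ce by 0.44 ± 0.093 (log2, SE) in the Co line and 0.46 ± 0.10 in the Hi line. Zfp746 (also called PARIS), a repressor of Ppargc1a that parkin marks for degradation, was higher in the Ce by 0.38 ± 0.062 and 0.34 ± 0.067. Zfp703, a corepressor described further on, was higher there by 0.40 ± 0.080 and 0.31 ± 0.086 (FDR-adjusted P-values 0.000242 and 0.00413). Zfp711 is X-linked, and loss of its human counterpart causes intellectual disability. It was higher in the St in the Co line alone, with a log2 fold change of -0.27 ± 0.086 and an FDR-adjusted P-value of 0.00964, against -0.02 ± 0.093 and 0.861 in the Hi line, and the difference between these values was not past the threshold (FDR-adjusted P-value of the interaction 0.578). The pair Zfp706 and Zfp871 had no region difference past the threshold in either line, with log2 values between 0.10 and 0.16.

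The second question was how the members differed between the lines within each region. In the cerebellum 8 of 95 members (8.42%) passed an FDR-adjusted P-value of 0.05, where 5.94% of all genes tested did, 2.94% higher and 2.99% lower in CeHi. Zfp937, Zfp960 and Zfp758 were higher in CeHi, and Zfp760, Zfp945, Zfp810, Zfp941 and Zfp703 were lower in CeHi. In the striatum 4 members (4.21%) passed, against 2.66% of all genes (1.49% higher and 1.17% lower in StHi), with Zfp758 higher in StHi and Zfp760, Zfp945 and Zfp839 lower. At an unadjusted P-value under 0.05 there were 17 members in the cerebellum and 14 in the St, against 19.7% and 14.1% of all genes. The counts of members were therefore near those of all genes in these comparisons, and 12 members in the cerebellum and 16 in the St had lines that did not overlap, against 13.3% and 13.1% of all genes.

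Small differences leaned to lower values in the Hi line in these libraries. Of the 95 members 63 had a negative log2 fold change in the cerebellum and 60 in the St, with medians of -0.05 and -0.04, while the medians of all genes tested were within 0.01 of 0. Of all 15213 genes 7700 and 7857 had a negative value, and of the 231 genes with other Zfp numbers 162 and 126 did. The median of the members in the Ce was -0.02 without CeCo replicate 1 and -0.07 without CeCo replicate 2. These medians are far smaller than the changes of the members that passed. The 9 members that passed in at least 1 region are plotted by sample. Of the 95 members tested 3 passed in both regions in the same direction, against 204 of all 15213 genes tested (1.34%).

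**Figure D3:**
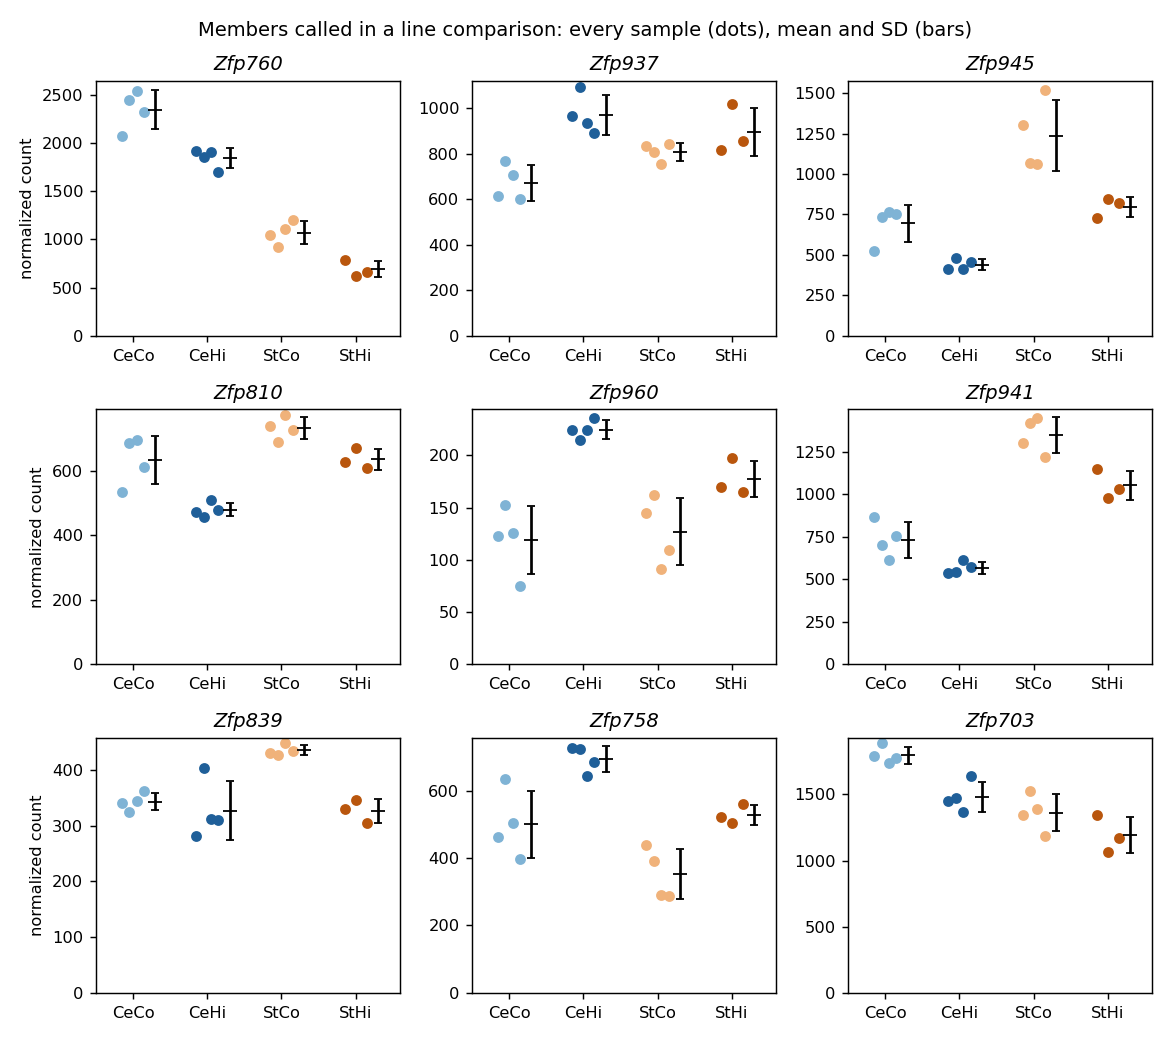
Normalized counts (y axis, from 0) of the 9 members past the threshold in a line comparison, by group on the x axis, with every sample as a dot and the mean and SD as bars. Zfp760 and Zfp945 sit lower in Hi in both regions and Zfp758 higher, without overlap of the lines.

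Zfp760, a KRAB member with 17 fingers, spans chr17:21707741-21725636 on the plus strand. It had 2076, 2448, 2538 and 2317 normalized counts in CeCo and 1917, 1853, 1907 and 1701 in CeHi. Striatal values were 1042, 926, 1111 and 1203 in StCo and 789, 624 and 664 in StHi. Hi samples were below Co samples in both regions without overlap. It was under-expressed in Hi by a log2 fold change of -0.35 ± 0.089 (SE, FDR-adjusted P-value 0.0269) in the cerebellum and -0.63 ± 0.096 (0.000816) in the St. The call in the Ce was lost without CeCo replicate 1, 2 or 3 or CeHi replicate 1 or 3, at FDR-adjusted P-values of 0.0503 to 0.0792, and the call in the St was kept under every alternative.

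Zfp945, with 18 fingers and no KRAB pattern found, spans chr17:22846697-22867134 on the minus strand. It had 528, 733, 765 and 753 normalized counts in CeCo and 411, 479, 414 and 460 in CeHi. St libraries held 1300, 1069, 1060 and 1518 in StCo and 729, 847 and 821 in StHi. All Hi samples were below all Co samples of their region, CeCo replicate 0 lying closest. It was under-expressed in Hi by a log2 fold change of -0.65 ± 0.13 (SE, FDR-adjusted P-value 0.0048) in the cerebellum and -0.62 ± 0.14 (0.0191) in the St. In the St the call was lost without StCo replicate 0 or StHi replicate 0 or 2, at 0.0512 to 0.076.

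Zfp758, a KRAB member with 12 fingers at chr17:22361453-22377281 on the plus strand, changed in the opposite direction. It had 461, 636, 504 and 398 normalized counts in CeCo and 727, 723, 645 and 686 in CeHi. Striatal libraries had 439, 392, 292 and 288 in StCo and 523, 503 and 560 in StHi. The lines did not overlap in either region, though CeCo replicate 1 came within 10 counts of the lowest CeHi sample. It was over-expressed in Hi by 0.49 ± 0.14 (SE, FDR-adjusted P-value 0.0483) in the cerebellum and 0.60 ± 0.15 (0.0419) in the St. Both calls were near the threshold, and 13 of 25 alternatives lost the first and 12 lost the second. In the Ce these were no filter (0.0567), edgeR on recovered fragments (0.0502) and the omission of CeCo replicate 0, 2 or 3, of any CeHi sample, of StCo replicate 1 or of any StHi sample, and in the St they were the replicate block (0.0569), the region fitted alone (0.0801) and the omission of CeCo replicate 0 or 2, CeHi replicate 0 or 2, StCo replicate 1, 2 or 3 or any StHi sample, with FDR-adjusted P-values up to 0.137 and 0.15.

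These 3 genes belong to 1 run of 10 members between 21567008 and 22867134 on chromosome 17. All 10 were tested. The nearest neighbour of Zfp758, Zfp944, had log2 fold changes of 0.27 ± 0.093 (SE, FDR-adjusted P-value 0.106) in the cerebellum and 0.34 ± 0.10 (0.0886) in the St. Zfp820 had -0.26 and -0.30 with SEs of 0.17 and 0.19, and Zfp946 had -0.15 and -0.11. Zfp948, Zfp942, Zfp943 and Zfp947 were between -0.04 and 0.09 in both regions. The members of this run were thus not shifted together.

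Over the span of this run 16 genes of any name were tested, and 4 passed in each region, where 5.94% of all genes passed in the cerebellum and 2.66% in the St. The run is described because it holds called members, so nothing is read from that count. The gene that is no member among them was 3110052M02Rik, lower in Hi with a log2 fold change of -0.86 ± 0.10 (SE, FDR-adjusted P-value 4.12e-05) in the cerebellum and -0.68 ± 0.11 (0.00156) in the St. Of the 9 members called in a line comparison 4 lie on chromosome 17, which holds 18 tested members. Genes of such runs are alike in sequence, but of the 50-base windows of their transcripts only 0.577% in Zfp760, 0.588% in Zfp945 and 5.81% in Zfp758 occur in another gene. Whether sequence differences between the lines changed the mapping of reads was not tested.

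**Figure D4:**
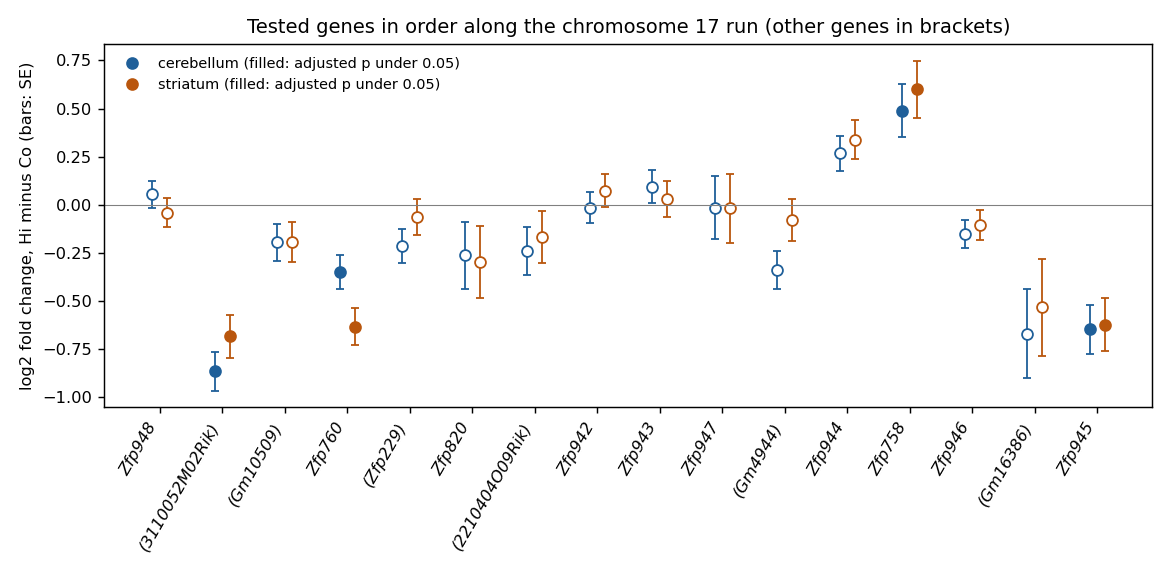
Log2 fold change between the lines, Hi minus Co (y axis, bars are the SE), of the 16 genes tested across the chromosome 17 run, in order along the chromosome on the x axis, for the cerebellum and the striatum. Filled points passed the threshold, and genes in brackets are no members. Zfp758 and Zfp944 lie above 0 and Zfp760 and Zfp945 below it, in both regions.

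Zfp960, the other called member on chromosome 17 (chr17:17064113-17089628), lies outside this run. Its CeCo libraries held 123, 152, 125 and 74.8 normalized counts and its CeHi libraries 224, 214, 224 and 236. StCo libraries held 144, 162, 91.4 and 110, and StHi libraries 170, 197 and 165. The lines did not overlap in either region. It was over-expressed in Hi by 0.95 ± 0.19 (SE, FDR-adjusted P-value 0.00625) in the cerebellum and 0.51 ± 0.21 (0.266) in the St. This gene cannot be told from its neighbour Zfp97 on most of its length, since 82.7% of its windows occur in another gene and 81.4% in Zfp97, which itself had 1.13 ± 0.30 (FDR-adjusted P-value 0.0386) in the Ce.

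Zfp937, a KRAB member with 14 fingers in a zinc finger cluster of chromosome 2, was the member with the smallest FDR-adjusted P-value in the Ce. It had 613, 768, 706 and 603 normalized counts in CeCo and 966, 1094, 934 and 891 in CeHi. In StCo it had 832, 808, 753 and 843 and in StHi 817, 1017 and 857. The lines were apart in the cerebellum and overlapped in the St. Its log2 fold change between the lines was 0.53 ± 0.090 (SE, FDR-adjusted P-value 0.00135) in the cerebellum and 0.14 ± 0.097 (0.602) in the St. The difference between the regions was 0.39 ± 0.13 with an FDR-adjusted P-value of 0.283 and was not past the threshold. Of its windows 29.4% occur in another gene, nearly all in Zfp442.

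Zfp810, a KRAB member with 10 fingers on chromosome 9, had 535, 687, 695 and 613 normalized counts in CeCo and 473, 458, 509 and 480 in CeHi. Striatal values were 739, 689, 774 and 726 in StCo and 628, 669 and 608 in StHi. Hi samples were below Co samples in both regions, with a log2 fold change of -0.40 ± 0.080 (SE, FDR-adjusted P-value 0.00578) in the cerebellum and -0.21 ± 0.087 (0.259) in the St. Its call in the Ce, like those of Zfp937, Zfp945 and Zfp960, was kept under all 25 alternatives. The gene next to it, Zfp809, was not called, at -0.12 ± 0.093 and -0.14 ± 0.10.

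Zfp941 on chromosome 7, a KRAB member with 9 fingers, had 867, 699, 612 and 753 normalized counts in CeCo and 540, 541, 615 and 571 in CeHi. St libraries held 1301, 1418, 1446 and 1218 in StCo and 1148, 976 and 1031 in StHi. The lines overlapped in the Ce, by CeCo replicate 2 and CeHi replicate 2, and were apart in the St. The log2 fold changes were alike, -0.37 ± 0.093 (SE, FDR-adjusted P-value 0.0268) in the cerebellum and -0.36 ± 0.10 (0.0672) in the St. The call in the Ce was lost without CeCo replicate 0 or 3 or CeHi replicate 0, 1 or 3, at 0.0535 to 0.0944, and with the region fitted alone. It overlaps Gm45785 on the same strand.

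Zfp703 and Zfp839 are the called members without a C2H2 finger by the pattern used. Zfp703 is a corepressor of the NET family that lacks a KRAB domain and whose human counterpart is amplified in luminal breast cancer. It had 1789, 1885, 1736 and 1772 normalized counts in CeCo and 1447, 1471, 1364 and 1638 in CeHi, lower in Hi without overlap. Striatal libraries had 1345, 1529, 1387 and 1187 in StCo and 1343, 1067 and 1168 in StHi, where the lines overlapped. The log2 fold change was -0.29 ± 0.080 (SE, FDR-adjusted P-value 0.0436) in the cerebellum and -0.20 ± 0.086 (0.30) in the St. The call was lost under 12 of 25 alternatives, which were no filter, no TMM factors, the replicate block (0.0646) and the omission of any CeCo sample, of CeHi replicate 0, 1 or 2, of StCo replicate 0 or of StHi replicate 2, at FDR-adjusted P-values up to 0.139. It overlaps Gm45371 on the opposite strand.

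Zfp839 on chromosome 12 was the member called in the striatum alone. It had 431, 427, 448 and 434 normalized counts in StCo and 330, 347 and 304 in StHi, apart by more than the range of either group. In the cerebellum it had 341, 325, 345 and 362 in CeCo and 282, 404, 311 and 310 in CeHi, which overlapped. The log2 fold change was -0.42 ± 0.10 (SE, FDR-adjusted P-value 0.038) in the St and -0.09 ± 0.096 (0.669) in the Ce, and their difference was not past the threshold (0.447). The call was lost under 13 alternatives, the replicate block (0.0655) and the omission of any CeCo, StCo or StHi sample or of CeHi replicate 2, at FDR-adjusted P-values up to 0.159.

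No member passed the test of the line-by-region interaction with limma, where 0.532% of all genes did. At an unadjusted P-value under 0.05 there were 4 members, against 9.56% of all genes. On the recovered fragments edgeR called 0 members (0.657% of all genes), with 5 at an unadjusted P-value under 0.05, and DESeq2 called 1 (1.82% of all genes), Zfp831, with 5 at that level. Zfp831 had a line log2 fold change of 1.16 ± 0.46 (SE, FDR-adjusted P-value 0.169) in the Ce, where its 8 libraries held at most 17.97 normalized counts, and -0.18 ± 0.49 (0.937) in the St. In the Ce line comparison it passed with the replicate block and with DESeq2, which also called Zfp784. Of the 9 members called in a line comparison, the log2 fold changes of all had the same sign in both regions. The same count was not made for all genes called, so it is not read as a trait of the members.

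**Figure D5:**
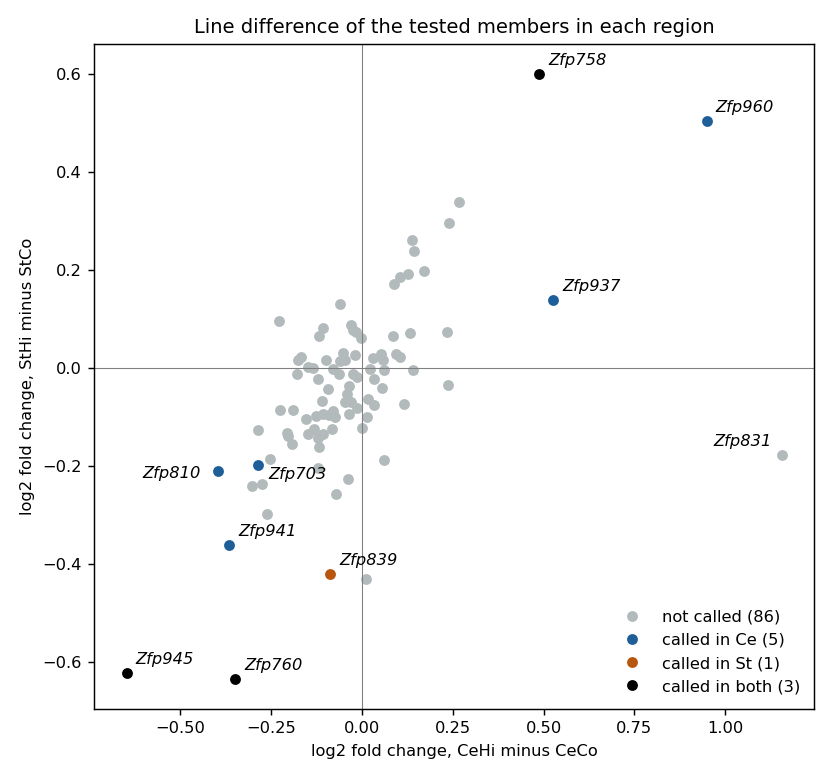
Log2 fold change between the lines, Hi minus Co, of the 95 tested members in the cerebellum (x axis) and the striatum (y axis), coloured by the region in which they passed an FDR-adjusted P-value of 0.05. The 9 called members lie above 0 on both axes or below 0 on both, and Zfp831, which did not pass with limma without the replicate block, lies at 1.16 and -0.18.

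The most abundant members per kilobase did not pass in either region. Zfp706 had line log2 fold changes of 0.03 ± 0.064 (SE) in the cerebellum and 0.02 ± 0.069 in the St, Zfp740 -0.03 ± 0.049 and 0.09 ± 0.052, and Zfp869 0.03 ± 0.056 and -0.08 ± 0.061. Zfp708, a member described as a repressor of retroelements, had -0.27 ± 0.11 and -0.24 ± 0.12, neither past the threshold (FDR-adjusted P-values 0.17 and 0.386), and 94.9% of its windows occur in another gene, for the most part Gm28557. Zfp746 had -0.11 ± 0.062 and -0.07 ± 0.067.

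The partners through which KRAB proteins act were examined as a list of 44 symbols of corepressor and heterochromatin genes, of which 40 were tested. In the line comparison 1 of the 40 passed in the cerebellum, where 5.94% of all genes did, and 0 passed in the St with limma, where 2.66% did. At an unadjusted P-value under 0.05 there were 8 in the cerebellum and 3 in the St, against 19.7% and 14.1% of all genes. Trim28, the scaffold that the KRAB domain binds, had 6488, 5944, 5551 and 5326 normalized counts in CeCo and 6368, 5742, 6521 and 6193 in CeHi. In the striatum it had 4862, 4753, 5413 and 4483 in StCo and 5334, 5187 and 5569 in StHi. The lines overlapped in both regions, with log2 fold changes of 0.09 ± 0.067 (SE) and 0.13 ± 0.072. Setdb1, the methyltransferase that Trim28 recruits, had 0.01 ± 0.060 and 0.11 ± 0.064.

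The listed gene that passed was H3f3b, which encodes the histone variant H3.3. It had 20952, 19265, 17794 and 19900 normalized counts in CeCo and 15926, 16053, 15936 and 16861 in CeHi, without overlap. In the striatum it had 6628, 5874, 6561 and 6526 in StCo and 6195, 6420 and 5937 in StHi, which overlapped. The log2 fold change was -0.27 ± 0.056 (SE, FDR-adjusted P-value 0.00676) in the cerebellum and -0.05 ± 0.060 (0.788) in the St, and the interaction was not past the threshold (0.36). The other H3.3 gene on the list, H3f3a, did not pass. It averaged 14618 normalized counts in CeCo and 14822 in CeHi. Its log2 fold change was 0.01 ± 0.064 (SE, FDR-adjusted P-value 0.866) in the cerebellum and 0.08 ± 0.069 (0.682) in the St.

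Between the regions 30 of the 40 partner genes passed in the Co line, 20 higher in the cerebellum and 10 higher in the St, and 32 in the Hi line, 21 and 11 in the same order. Of all genes 74.7% passed in the Co line, 37.8% higher in the cerebellum and 36.9% higher in the St. In the Hi line 70.5% of all genes passed, 35.4% and 35.1% in the same order. The list thus passed at 75% and 80%, and its split leaned to the cerebellum where that of all genes was even. Trim28 was higher in the Ce by 0.25 ± 0.067 (SE, FDR-adjusted P-value 0.00271) in the Co line and 0.20 ± 0.072 (0.018) in the Hi line. Setdb1 was higher by 0.28 ± 0.060 and 0.17 ± 0.064 (FDR-adjusted P-values 0.000447 and 0.0228). H3f3b, at 1.60 ± 0.056 and 1.38 ± 0.060, was also higher in the Ce. Other genes of the list were higher in the St, among them Chd3 (-1.88 and -1.76), Uhrf1 (-1.42 and -1.86) and Ehmt2 (-0.94 and -0.91). The median log2 fold change of the list was 0.19 in both lines, beside 0.38 and 0.34 for the members and 0.01 in both lines for all genes tested.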

How the data were processed

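Total RNA of cerebellum and striatum was sequenced as paired-end reads of 100 bases. The authors used Tophat2 for alignment to GRCm38 and Cuffnorm 2.2.1 for normalization. The deposited values are a signal, fragment counts that were divided for each sample by its own factor, with no correction for length. In each sample 99.3% to 99.7% of the low values were whole multiples (within 0.02) of the value of 1 fragment, and totals were 38499264 to 43669012. Counting was not stated to use strand.

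Samples were grouped by their titles. Values were scaled with TMM factors, transformed as log2 of the value plus 1 and fitted with limma 3.58.1 (trend, robust, R 4.3.3) as 4 group means over all 15 samples. P-values were adjusted with Benjamini-Hochberg over the 15213 genes tested. The line contrast was Hi minus Co, the region contrast Ce minus St and the interaction the Ce line difference minus the St line difference. edgeR 4.0.16 and DESeq2 1.42.0 were run on recovered fragments as alternatives, beside other pseudocounts, filters and scalings, the replicate block, each region fitted alone and each sample left out. The fit was also run on simulated data that had changes in the Ce line contrast alone and no difference between the regions. It therefore says nothing of the calls in the other contrasts. Nothing in the labels says which Ce and St samples share an animal. Deviations from the group means correlated between CeCo and StCo samples of the same number (0.171 to 0.278, each highest with its own number). They did not between CeHi and StHi samples (-0.0751 to 0.0513). Replicate 0 of StCo and of StHi, from different mice, also correlated best with its own number, at 0.196. Whether equal numbers mark 1 animal was therefore not settled. The main fit took the 15 samples as independent, and numbers entered only in the replicate block. That block joined samples of the same number across both lines and both regions. It thus put different mice together and did not model tissues that share an animal. P-values measure the spread between the 15 samples.

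Genes were placed with the GENCODE vM21 annotation of GRCm38, whose coding transcripts were translated to search for the KRAB A box and C2H2 finger patterns. The members and lists were chosen with earlier results of these data known. Genes named were every member called in a line comparison, the 5 widest region differences in each direction, the 5 highest per kilobase, 5 members of known function, and Trim28, Setdb1 and any called corepressor. Zfp944 and the other members of its run, 3110052M02Rik, Zfp97 and H3f3a were named after their values were seen. So were Chd3, Uhrf1 and Ehmt2, the untested members and the further members higher in the St.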

Additional observations from a re-analysis of the deposited data

Results flagged for a closer look

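In groups of 4 samples, the highest or lowest value of each named gene was compared with the rest, and a value was singled out when its gap to the nearest of the others was a larger share of the group's range than Dixon's critical value for 4 samples. Of 84 groups over 28 genes 4 stood out this way, where chance gives about 1 in 20. Zfp945 had 528 normalized counts in CeCo replicate 0, below the 733 to 765 of the other CeCo samples and still above every CeHi sample. Zfp706 had 12228 in CeHi replicate 3, above the other CeHi samples at 10179 to 10403. H3f3b had 16861 in the same library, above 15926 to 16053, and 5874 in StCo replicate 1, below 6526 to 6628.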

How the results depend on the processing

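No log2 fold change of a called named gene changed sign under any of the 25 alternatives, and of 33 calls of named genes 26 were kept under all that could be fitted. Leaving out each sample in turn gave 4 to 8 members called between the lines in the Ce and 1 to 4 in the St. Fewest were called without CeCo replicate 3 (4 in the Ce) and without StHi replicate 0 (1 in the St, Zfp760). The replicate block gave 2 members in the St instead of 4, Zfp760 and Zfp945, which lost Zfp758 (FDR-adjusted P-value 0.0569) and Zfp839 (0.0655), and in the Ce it lost Zfp703 (0.0646) and gained Zfp831, for 4 members higher and 4 lower in CeHi. Between the groups set against each other in the line comparisons, deviations of samples of the same number correlated at -0.221 to 0.183 for CeCo with CeHi and -0.0432 to 0.196 for StCo with StHi. With the block the region comparison of the Co line, where samples of the same number correlated, again gave 61 members higher in the Ce and 17 in the St. Since the block joined numbers across the lines, it was no test of pairing within animals. DESeq2 called 10 members between the lines in the Ce, with Zfp784 and Zfp831 beside the 8, and gave 1 member for the interaction instead of 0. The count of Zfp784 is uncertain, since most of its windows occur in Zfp865 on the opposite strand. The region counts stayed between 74 and 79 in the Co line and 63 and 69 in the Hi line when a sample was left out. Depth limits the reading of Zfp831 in the cerebellum and of the 5 untested members. The cause of these changes was not tested.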
